A study of Mus musculus with 9 samples.

Results

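Eryth2 is 1 of the 2 erythroid labels that the authors gave to single cells of the mouse thyroid. Its members were taken by that deposited label alone, and 1092 of 10186 cells (10.7%) carried it. The other erythroid label, Eryth1, held 997 cells. The Eryth2 cells held 8602777 unique molecular identifiers (UMIs, counted transcript molecules), which was 13.6% of all UMIs in the table, and 7762 genes had at least 1 UMI in them. The median Eryth2 cell had 7944.5 UMIs but only 90 detected genes.

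The tissue was the thyroid of male C57BL/6 mice, and the series design text gives an age of 10 to 12 weeks while the treatment protocol gives 10 to 14 weeks. Each mouse had 1 intraperitoneal injection of antibody, and the labels give 7 days for every group. RW mice received an anti-ragweed antibody as isotype control (40 mg/kg). aJ1aJ2 mice received anti-Jag1 and anti-Jag2 (20 mg/kg each), which block 2 Notch ligands, and aN1aN2 mice received anti-Notch1 (5 mg/kg) and anti-Notch2 (10 mg/kg), which block 2 Notch receptors. Each of the 9 samples was a pool of thyroids from 6 mice, so the pool was the replicate, with 3 per group. The internal numbers in the sample titles fall into 3 runs, called series A (RW 3 and aJ1aJ2 1), series B (RW 1 and 2 with aJ1aJ2 3 and 4) and series C (all aN1aN2 samples and no other). Receptor blockade and series C therefore cannot be told apart in any comparison below.

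Erythroid precursors lose their nucleus and become reticulocytes, which enter the blood and mature into red cells. Reticulocytes no longer transcribe, so their transcripts are those left from the nucleated stage, dominated by globin mRNA, while mitochondria, ribosomes and surplus proteins are removed by autophagy and by the ubiquitin system. The adult mouse beta globin locus carries a pair of expressed adult genes, Hbb-bs and Hbb-bt, and the alpha locus carries Hba-a1 and Hba-a2. The thyroid is a richly perfused gland, and red cells are present in a digest of tissue that was not freed of blood. Notch receptors act in many blood lineages.

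Hbb-bt lies on chromosome 7 at 103812524 to 103813996 and Hbb-bs at 103826534 to 103828096 (GENCODE M21, GRCm38, both on the minus strand), with 12537 bases between them. Their coding sequences, each of 444 bases, were identical at 443 positions. The only difference was T417C (Hbb-bt base first, position counted from 1 at the A of the start codon). It is shown here, in capitals, within coding bases 397 to 437 of each gene, because the split of UMIs between the pair cannot rest on the rest of the coding sequence.
Hbb-bt: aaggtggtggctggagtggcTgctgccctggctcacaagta
Hbb-bs: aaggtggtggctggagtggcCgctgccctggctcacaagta
The last 100 bases of the 2 annotated transcripts were 67.3% identical over the alignment, so reads that reach them can differ between the genes. Where the reads fell along the transcripts was not measured, and reads within the coding sequence could rarely tell the pair apart. For Hba-a1 and Hba-a2 the coding sequences were identical at 428 of 429 positions, and the last 100 annotated bases were 72.4% identical, part of which reflects annotated ends of unequal length. How reads that match both copies were assigned is not given in the sources used here, so a split within either pair is uncertain to that extent.

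The label was checked against erythroid genes before any comparison. The 4 adult globins made up 96.6% of all Eryth2 UMIs, and 93.1% in Eryth1. Of the 6 embryonic and minor globins, Hbq1a (251 UMIs), Hbq1b (88) and Hbb-y (5) were detected, and Hbb-bh1, Hbb-bh2 and Hba-x were at 0. Of 11 erythroid transcription factors, Gata1, Klf1, Gfi1b, Bcl11a and Sox6 were at 0 UMIs, Lmo2 had 97 and Foxo3 had 37. The 10 genes of early erythroblasts and the cell cycle had 20 UMIs in all. The 3 markers given with the label, Hbb-bt, Bpgm and Mkrn1, were each higher in Eryth2 than in Eryth1 in 9 of 9 samples. Since these markers came with the label, that is a description and no check of it. Other genes of cell division, chosen after their values were seen, were detected, with 503 UMIs of Ube2c (57.1 CPM in Eryth2 and 6.80 in Eryth1, higher in 9 of 9 samples), 263 of Pttg1, 221 of Diaph3, 159 of Nusap1 and 125 of Ube2s.

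RNA of other cell types was present at a low level. Tg, the thyroglobulin gene of thyrocytes, had at least 1 UMI in 608 Eryth2 cells (55.7%), and its level per sample relative to all cells outside the erythroid labels was 0.165% to 0.878%. The summed level of the 10 thyrocyte markers ranged from 95.2 to 187.3 CPM (counts scaled to the same total in each sample) in RW, 95.9 to 265.4 in aJ1aJ2 and 122.8 to 166.8 in aN1aN2. Endothelial markers summed to 8.14 to 33.1 CPM, and the 6 neutrophil markers were at 0 UMIs. Pth, the parathyroid hormone gene, was at 251.6 CPM in RW 3, 163.7 in aN1aN2 1 and 83.8 in aJ1aJ2 1, and at 8.44 to 49.4 in the other samples. The summed parathyroid, C cell and muscle markers reached 359.7 CPM in RW 3 and 205.1 in aN1aN2 1. Only 2 Eryth2 cells had a barcode that another sample also held. Chi-square tests between replicate sums gave 4.06 to 20.5 per degree of freedom, so no replicates were as alike as sampling noise would make them, and each sample counted once.

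Eryth2 cells were a larger share of all cells in the receptor blockade samples, without overlap. They were 11.5%, 11.9% and 5.52% of cells in RW 1, 2 and 3, with exact 95% binomial intervals reaching at most 3.25 points to a side in any sample. They were 9.43%, 5.87% and 7.04% in aJ1aJ2 1, 3 and 4, and 16.7%, 16.2% and 21.1% in aN1aN2 1, 2 and 3. All 3 aN1aN2 samples were above every other sample, and RW 3 was the lowest of all. The mean of 18.0% ± 2.71 in aN1aN2 (SD, n = 3) exceeded the RW mean of 9.63% ± 3.57 by 8.36 points (exact two-sided permutation p = 0.1, the smallest that 3 against 3 samples allow; 0.2 after adjustment over 30 comparisons of this kind). Against aJ1aJ2 the difference was 10.5 points (exact permutation p = 0.1, adjusted 0.2). As a share of the erythroid cells alone, Eryth2 was 57.5% in aN1aN2 and 49.4% in RW (exact permutation p = 0.2), and there the groups overlapped, since aN1aN2 2 at 54.17% lay just below RW 3 at 54.21%.

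**Figure D1:**
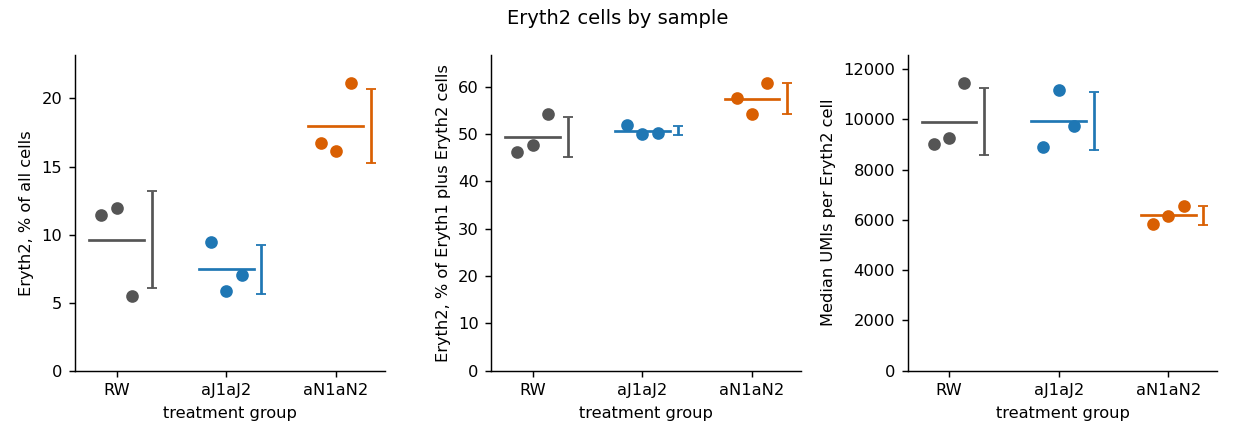
Share of Eryth2 among all cells (left), among Eryth1 plus Eryth2 cells (middle) and median UMIs per Eryth2 cell (right), 1 point per sample, with group means as lines and SD as bars (n = 3). The aN1aN2 samples sit at 16.2% to 21.1% of all cells, above every RW and aJ1aJ2 sample, and at 5822 to 6563 UMIs per cell, below all of them.

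The share under ligand blockade had no settled direction. aJ1aJ2 was 2.19 points below RW over all samples (exact permutation p = 0.4, adjusted 0.522), with overlapping groups. Within series A the single aJ1aJ2 sample was 3.92 points above the RW sample, and within series B the mean was 5.24 points below. As a share of the erythroid cells alone, the aJ1aJ2 mean was 1.30 points higher than RW (exact permutation p = 0.7).

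The depth of the cells moved with receptor blockade. Median UMIs per Eryth2 cell were 9031, 9276 and 11431.5 in RW 1, 2 and 3, then 8894, 11182 and 9746 in aJ1aJ2 1, 3 and 4, and 5822, 6158 and 6563 in aN1aN2 1, 2 and 3. The groups did not overlap (exact permutation p = 0.1 for each contrast with aN1aN2, adjusted 0.2). The median over cells outside the erythroid labels moved the same way, from a mean of 3484 ± 541 UMIs in RW to 1786 ± 173 in aN1aN2 (SD, n = 3 each). Each aN1aN2 value below therefore stands beside a lower depth in Eryth2 and in the pooled cells of other labels, whose median also moves with their makeup, and the part of depth in it was not tested except where a value is given.

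Among the 4 adult globins, Hbb-bt differed most between the erythroid labels. Of the UMIs of Hbb-bt and Hbb-bs together, Hbb-bt made up 12.2% to 16.3% per sample in Eryth2 and 2.87% to 4.34% in Eryth1. Per cell, the median share was 13.9% in Eryth2, with 5% of cells below 4.10% and 5% above 20.9%, and 2.10% in Eryth1. The labels overlapped, since 77 Eryth2 cells were under 5% and 39 Eryth1 cells were over 10%. The mean log2 ratio of Hbb-bt CPM between the labels was 2.25 ± 0.27 (SD over 9 samples), and that of Hbb-bs was 0.06 ± 0.06. Since the authors' labels may rest on the expression of these same cells, no test is given between them.

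The gap was also present between cells of similar depth. Among cells of 2000 to 5000 UMIs, 190 Eryth2 cells (median 3534 UMIs) had an Hbb-bt share of 9.78%, and 339 Eryth1 cells (median 3014 UMIs) had 3.12%. In the same cells Bpgm was at 564 CPM in Eryth2 and 62.0 in Eryth1, Mkrn1 at 495 and 69.5, and Gpx1 at 282 and 10.3. Alas2 was at 2167 and 880 CPM, while Ubb, a polyubiquitin gene, was at 692 and 939. These cells were pooled over samples and groups without balancing them, so group makeup may enter these values, which was not tested. Over cells of all depths, the mean over samples for Alas2 was 1728 CPM in Eryth2 and 859.6 in Eryth1. For Ubb it was 1064 and 1033 CPM, higher in Eryth2 in 6 of 9 samples. In every sample the alpha globins were a smaller part of the adult globin UMIs in Eryth2 (35.0% to 37.9%) than in Eryth1 (41.8% to 46.9%).

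**Figure D2:**
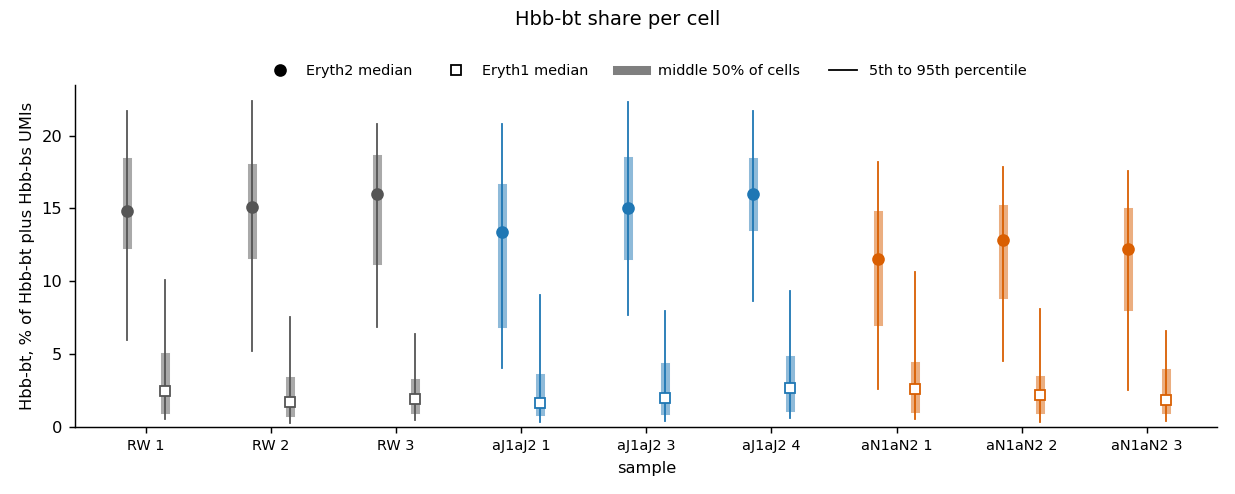
Hbb-bt as a percentage of Hbb-bt plus Hbb-bs UMIs per cell, for Eryth2 (filled circles) and Eryth1 (open squares) in each sample, with medians, the middle 50% of cells (thick) and the 5th to 95th percentiles (thin). Eryth2 medians run from 11.5% to 16.0% and Eryth1 medians from 1.61% to 2.67%, and the 3 aN1aN2 samples have the lowest Eryth2 medians.

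Within Eryth2 the Hbb-bt share was lower after receptor blockade. It was 15.1%, 15.8% and 15.7% in RW 1, 2 and 3, and 14.4%, 15.6% and 16.3% in aJ1aJ2 1, 3 and 4. It was 12.2%, 12.9% and 12.6% in aN1aN2 1, 2 and 3, below all other samples. The difference from RW was -2.99 points (12.5% ± 0.35 against 15.5% ± 0.34, SD, n = 3 each; exact permutation p = 0.1, adjusted 0.2), and that from aJ1aJ2 was -2.87 points (exact permutation p = 0.1, adjusted 0.2). aJ1aJ2 and RW differed by -0.118 points (exact permutation p = 0.8, adjusted 0.857), less than the SD of either group. Counting error was small here, with exact 95% binomial intervals of at most 0.126 points to a side.

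The direction of the aN1aN2 difference depended on which cells were compared. Cells of 5000 to 8000 UMIs, a range chosen after the values were seen, had a mean share of 12.0% in aN1aN2 and 11.1% in RW, a difference of 0.861 points the other way, with overlapping groups (exact permutation p = 0.2). In that range lay 44 to 70 cells per aN1aN2 sample, near the middle of those samples, and 8 to 34 cells per RW sample, from the shallow end of those. In each sample's own Eryth2 cells at or above their median UMI number, a set also chosen after the values were seen, the share was 14.0% in aN1aN2 and 17.2% in RW, a difference of -3.21 points (exact permutation p = 0.1).

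Over all Eryth2 cells, other globin measures moved less than the Hbb-bt share in aN1aN2. In aJ1aJ2 against RW, the Hba-a1 share moved more than the Hbb-bt share. Adult globins made up 96.5% to 97.0% of Eryth2 UMIs in RW, 95.2% to 97.1% in aJ1aJ2 and 96.9% to 97.1% in aN1aN2, with overlapping groups. The lowest value was that of aJ1aJ2 4, which also had the highest mitochondrial genome share (1.56%, against 0.336% to 0.930% in the other samples). Hba-a1 was 57.0% to 57.4% of the alpha globin UMIs in RW, 58.3% to 59.3% in aJ1aJ2 and 58.7% to 59.2% in aN1aN2. Both blockade groups lay above RW without overlap (differences of 1.42 and 1.74 points, exact permutation p = 0.1 each, adjusted 0.2), and aJ1aJ2 lay above RW within series A (0.969 points) and within series B (1.65 points).

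Bpgm, Mkrn1 and Ube2b of the late erythroid list were among the genes highest in Eryth2 against Eryth1, together with enzyme genes and genes on no list. By the mean log2 ratio of CPM to Eryth1, over 258 genes with enough UMIs, the 10 highest were Gpx1 (5.19), Car2 (3.86), Bpgm (3.58), Fam213a (3.47), Mkrn1 (3.37), Ube2b (3.03), Map1lc3b (2.80), Hagh (2.76), 1810058I24Rik (2.73) and Gclm (2.69). A gene passed with enough UMIs in the 2 labels together, so one nearly absent from Eryth1, such as Car2 (874 UMIs in Eryth2 and 6 in Eryth1) or Fam213a (721 and 9), was among them through Eryth2 alone, and its ratio depends on the prior count. Gpx1 and Gclm serve glutathione metabolism, Car2 is a carbonic anhydrase, Bpgm makes the bisphosphoglycerate that lowers the oxygen affinity of hemoglobin, Mkrn1 and Ube2b act in ubiquitin transfer, and Map1lc3b encodes an autophagosome protein. The 10 lowest were Calca (-3.20), Malat1 (-3.04), Crip1 (-3.04), Fabp4 (-2.96), Mt1 (-2.83), Tmsb4x (-2.81), Ptma (-2.61), Tg (-2.56), Rps4x (-2.55) and Txnip (-2.54). Of these, Tg, Calca and Fabp4 are markers of thyrocytes, C cells and endothelium, and Tg was at 139 CPM in Eryth2 and 1073 in Eryth1.

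**Figure D3:**
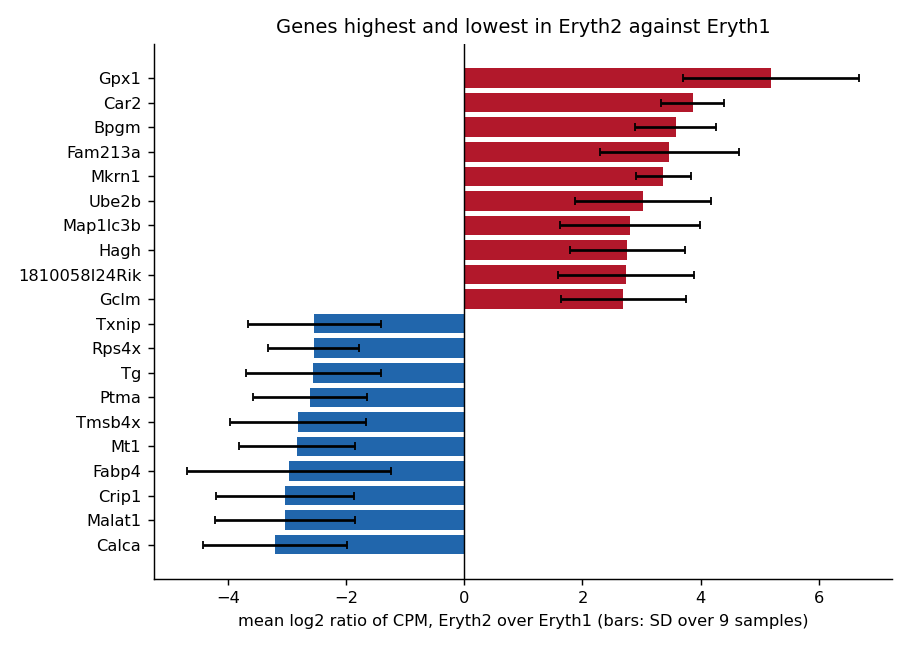
The 10 highest and 10 lowest genes by mean log2 ratio of CPM between Eryth2 and Eryth1, with SD over 9 samples as error bars. Gpx1 (5.19), Car2 (3.86) and Bpgm (3.58) lead the high end, and Calca (-3.20) and Malat1 (-3.04) the low end.

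Bpgm and Mkrn1 had a UMI in a larger share of Eryth2 cells than of Eryth1, EC1 or Th1 cells when all were thinned to equal depth. With each cell thinned to 1000 UMIs, which left out 23 Eryth2 and 297 Eryth1 cells, Bpgm had a UMI in 49.6% of Eryth2 cells, 8.0% of Eryth1 cells, 1.81% of the endothelial label EC1 and 1.63% of the thyrocyte label Th1. Before thinning these shares were 82.1%, 13.9%, 10.6% and 24.5%, at median depths of 7944, 1682, 3994 and 12550 UMIs. Mkrn1 had a UMI in 49.7% of thinned Eryth2 cells, 6.57% of Eryth1 cells, 4.68% of EC1 cells and 4.53% of Th1 cells. Before thinning these shares were 84.1%, 11.6%, 22.0% and 52.4%, so Mkrn1 was also detected in the other labels, where its mean level in RW was 54.5 CPM. Gpx1 does not mark red cells alone, since thinned Eryth2 cells had it in 27.5% and EC1 cells in 22.2%, while Eryth1 cells had it in 1.14%.

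The cells of Eryth2 were not uniform, and Bpgm, Mkrn1 and Gpx1 varied with the Hbb-bt share. When the cells of each sample were ordered by that share and divided into quintiles (5 parts of equal cell number), its value ran from 7.12% in the lowest quintile to 19.5% in the highest. Bpgm ran from 375 to 1574 CPM, Mkrn1 from 382 to 1209 and Gpx1 from 108 to 1141 across the same quintiles. The antioxidant gene Prdx2 ran from 64.2 to 253 CPM. Alas2, the first enzyme of erythroid heme synthesis, was at 1704 and 1788 CPM in the lowest and highest quintiles, and Ftl1, the ferritin light chain, was at 1139 and 967. Median UMIs per cell ran from 5267 to 10200 over the quintiles, so depth varied along the same order. The Spearman correlation of the Hbb-bt share with UMIs per cell was 0.213 to 0.661 within samples (55 to 175 cells each, which share a library), a description only.

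**Figure D4:**
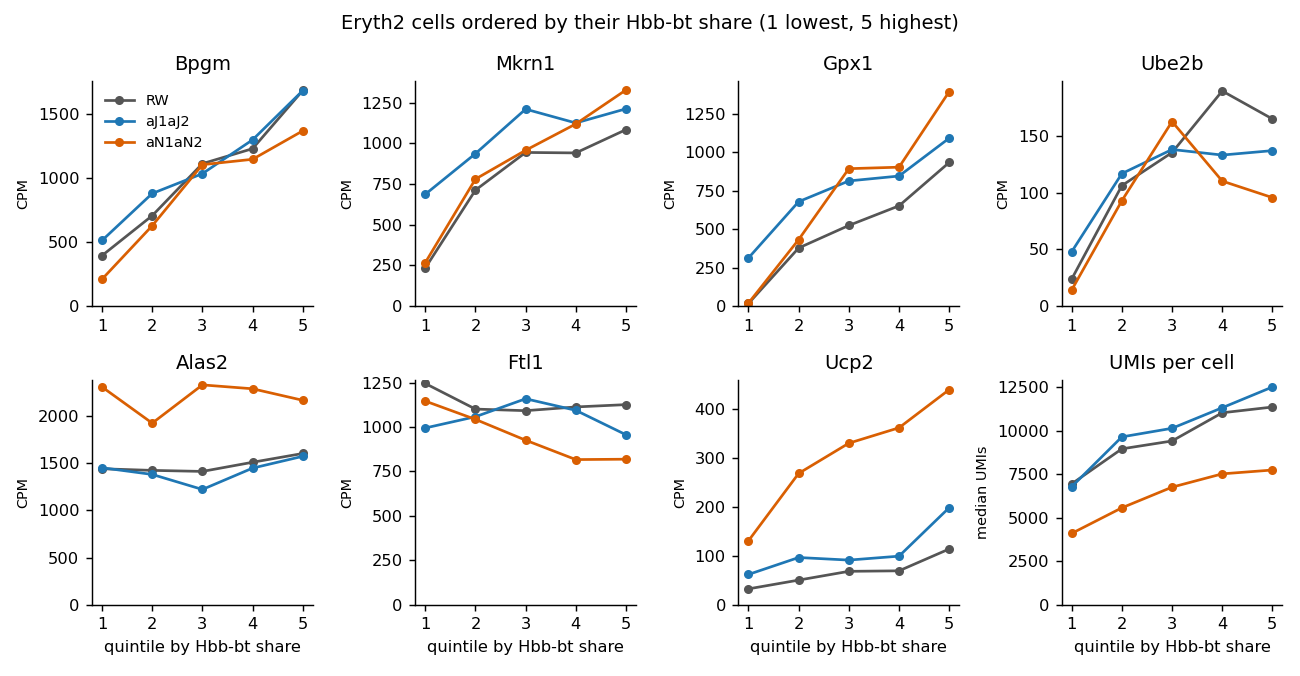
Levels of 7 genes (CPM of summed cells) and median UMIs per cell over quintiles of each sample's Eryth2 cells ordered by Hbb-bt share, summed by group. Bpgm, Mkrn1 and Gpx1 rise from the lowest to the highest quintile in all 3 groups, Alas2 does not, and Ucp2 is highest in aN1aN2 in every quintile.

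For tests between groups, UMIs were summed over the Eryth2 cells of each sample and 279 genes passed a filter on low counts. Levels of the Eryth2 sums below are CPM scaled to totals adjusted by the TMM method. Levels in Eryth1, in cells of other labels and in quintiles, and free RNA estimates, are CPM scaled to total UMIs without TMM. Fold changes are log2 values with their standard error (SE). Genes were called at a Benjamini-Hochberg adjusted p under 0.05 in edgeR's quasi-likelihood test. Over all genes tested the median log2 fold change was 0.02 for aJ1aJ2 against RW and -0.02 for both contrasts with aN1aN2. Both blockades are set against the same RW samples, and aN1aN2 enters 2 of the 3 contrasts.

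Few differences were detected in Eryth2 under ligand blockade. Of 279 genes, 1 was called (0.358%) and 15 had an unadjusted p under 0.05, and DESeq2 called 0. The called gene was Tax1bp1, an autophagy receptor, at 28.5, 24.7 and 36.7 CPM in RW 1, 2 and 3 and 7.62, 7.60 and 12.6 in aJ1aJ2 1, 3 and 4. All aJ1aJ2 samples were below all RW samples (log2 fold change -1.57, SE 0.30, edgeR adjusted p = 0.0405). The call was lost when any of 5 of the 6 samples was left out. It was also lost when series (A or B) entered the fit as a block. Of the late erythroid list 0 of 17 tested genes were called, with a median log2 fold change of -0.06, and Bpgm (-0.10, SE 0.17), Mkrn1 (0.26, SE 0.16) and Hbb-bt (-0.02, SE 0.14) had edgeR adjusted p-values of 0.971, 0.790 and 1.00. aJ1aJ2 1 of series A stood above the other aJ1aJ2 samples in several genes, among them Alas2 at 2221 CPM against 1279 and 1027. Part of this gap is scaling, since the TMM factor was 0.823 in aJ1aJ2 1 and 1.08 and 1.26 in aJ1aJ2 3 and 4. A lower factor raises every CPM of a sample.

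Receptor blockade was the contrast with more calls. Of 279 genes, 24 were called in aN1aN2 against RW (8.6%), 11 higher (3.94%) and 13 lower (4.66%), and DESeq2 called 20. The groups did not overlap in 100 genes (35.8%). The count was 7 without aN1aN2 3, 10 without RW 1, 11 without aN1aN2 2, 13 without aN1aN2 1 and 15 without RW 2. With aJ1aJ2 as the reference, 26 were called (9.32%), and of these 11 rose (3.94%) and 15 fell (5.38%), while 84 genes did not overlap (30.1%). That count was 9 without aN1aN2 3 or aJ1aJ2 4, and 11 without aN1aN2 1 or aJ1aJ2 3.

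Ucp2, which encodes a carrier protein of the mitochondrial inner membrane, had the largest rise. It was at 70.0, 67.2 and 73.3 CPM in RW 1, 2 and 3, at 159.9, 108.9 and 88.2 in aJ1aJ2 1, 3 and 4, and at 373.1, 346.5 and 322.1 in aN1aN2 1, 2 and 3. Every aN1aN2 sample lay above every other sample, and every aJ1aJ2 sample above every RW sample. The log2 fold change was 2.31 (SE 0.23, edgeR adjusted p = 1.68e-05) against RW and 1.58 (SE 0.23, edgeR adjusted p = 0.000403) against aJ1aJ2. Ucp2 was higher in aN1aN2 in each quintile by Hbb-bt share, at 131 and 440 CPM in the lowest and highest quintiles, where RW had 32.5 and 114. Ucp2 also differed outside the label, at 222 CPM in RW and 742 in aN1aN2 over all cells of other labels, and at 32.7 and 75.1 in Eryth1. If free RNA had the composition of those other cells, Tg would put its part in the Eryth2 level of Ucp2 at 0.730 CPM in RW and 1.77 in aN1aN2.

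Of the late erythroid list, 2 of 17 tested genes rose in aN1aN2 against RW (3.94% of all 279 genes did) and none fell (4.66% of all), with a median log2 fold change of 0.08. Ncoa4, the receptor that delivers ferritin to autophagy, was at 63.9, 71.3 and 83.3 CPM in RW, 106.6, 58.3 and 49.6 in aJ1aJ2 and 172.4, 142.4 and 147.6 in aN1aN2. It rose by 1.09 (SE 0.27, edgeR adjusted p = 0.0229) against RW and 1.18 (SE 0.27, edgeR adjusted p = 0.0189) against aJ1aJ2. Over cells of other labels Ncoa4 was at 60.5 CPM in RW and 58.6 in aN1aN2. Isca1, which acts in iron-sulfur cluster assembly, was at 101.1, 152.9 and 175.0 CPM in RW, 215.8, 117.4 and 105.5 in aJ1aJ2 and 292.4, 279.3 and 277.3 in aN1aN2. It rose by 0.99 (SE 0.28, edgeR adjusted p = 0.0381) against RW and 0.99 (SE 0.28, edgeR adjusted p = 0.0420) against aJ1aJ2. For both genes the aN1aN2 samples did not overlap with any other sample, and aJ1aJ2 1 was the highest of the others.

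The rest of that list did not pass the test. Bpgm was at 1056, 977 and 1340 CPM in RW and 1039, 1050 and 1030 in aN1aN2 (log2 fold change -0.11, SE 0.17). Mkrn1 was at 796, 800 and 890 CPM in RW and 976, 1070 and 1034 in aN1aN2 (0.31, SE 0.16, edgeR adjusted p = 0.225), without overlap. Bnip3l, the mitophagy receptor that clears mitochondria from reticulocytes, was at 265.3, 255.7 and 308.2 CPM in RW and 381.9, 428.4 and 395.9 in aN1aN2 (0.54, SE 0.19, edgeR adjusted p = 0.0867), also without overlap. Tspo2, an erythroid membrane protein gene, was at 25.9, 19.2 and 15 CPM in RW and 4.36, 12.3 and 10.1 in aN1aN2 (-1.20, SE 0.36, edgeR adjusted p = 0.0583).

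Other tested members are given by their group means in RW and aN1aN2. Ubb was at 1105 and 948 CPM, Ube2l6 at 541.6 and 795 and Fam220a at 490 and 600. Tent5c, a poly(A) polymerase, was at 247.3 and 340.5 CPM, Ube2b at 131.7 and 107.6, Ube2o at 60.6 and 65.5 and Riok3 at 61.8 and 63.7. Ube2h was at 30.5 and 30.4 CPM, Bcl2l1, an inhibitor of apoptosis, at 18.1 and 28.9 and Trim10 at 14.8 and 5.96. The samples of RW and aN1aN2 did not overlap for Ube2l6, Fam220a, Tent5c, Bcl2l1 and Trim10, as for 35.8% of all tested genes, and nothing is read from it. The 8 members below the filter were Tmcc2 (42 UMIs over all samples), Pim1 (33), Hemgn (30), Fbxo7 (28), Xpo7 (10), Trim58 (6), Nprl3 (1) and Ypel4 (0).

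**Figure D5:**
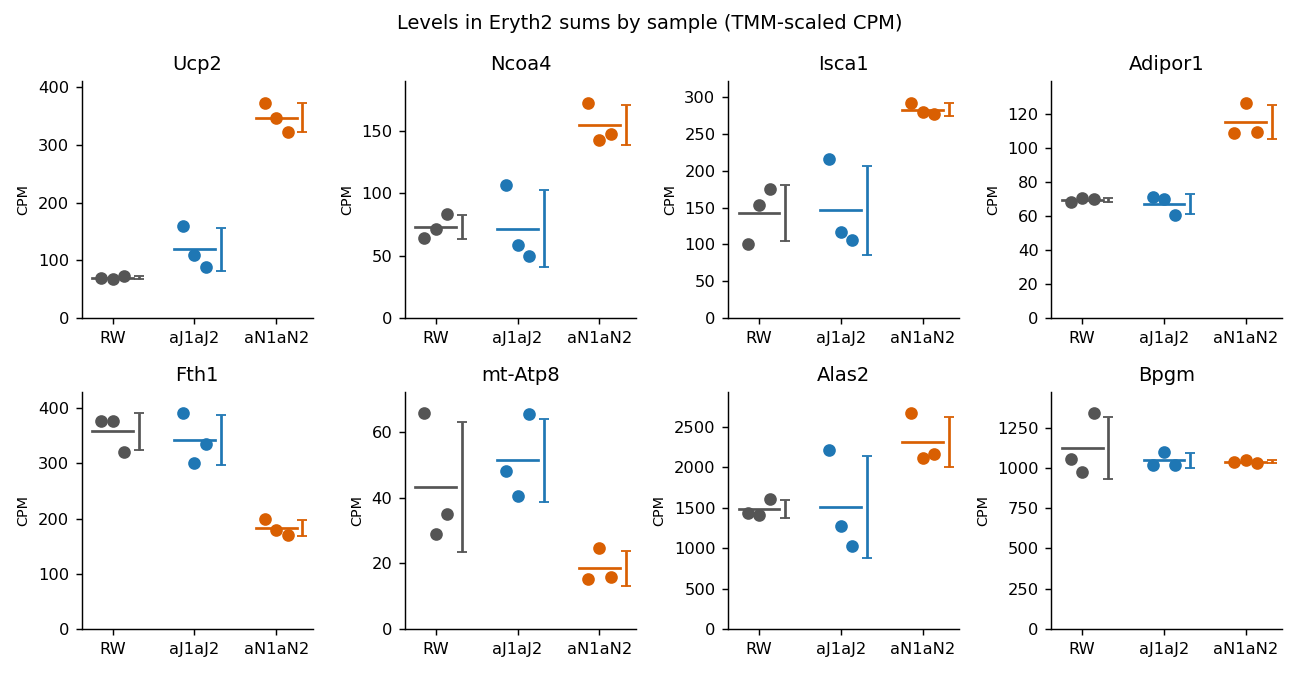
TMM-scaled CPM of 8 genes in the Eryth2 sum of each sample, with group means as lines and SD as bars (n = 3). Ucp2, Ncoa4, Isca1 and Adipor1 are higher and Fth1 and mt-Atp8 lower in all aN1aN2 samples than in all RW samples, Alas2 did not pass the test, and Bpgm overlaps.

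Of the heme and iron genes, 1 of 6 tested was called, where 8.6% of all tested genes were, so that 1 call among so few is near the background. Fth1, the ferritin heavy chain, was at 377.6, 377.8 and 319.9 CPM in RW, 390.9, 300.6 and 334.6 in aJ1aJ2 and 198.6, 179.4 and 171.1 in aN1aN2. The aN1aN2 samples were the lowest, and Fth1 fell by 0.97 (SE 0.19, edgeR adjusted p = 0.00643) against RW and by 0.90 (SE 0.19, edgeR adjusted p = 0.0105) against aJ1aJ2. Over cells of other labels Fth1 was at 5077 CPM in RW and 5354 in aN1aN2, and in Eryth1 at 203.9 and 207.8. Its free RNA estimate from Tg was 15.2 CPM in RW and 12.9 in aN1aN2. Alas2 was at 1440, 1410 and 1608 CPM in RW and 2670, 2111 and 2162 in aN1aN2 (0.64, SE 0.24, edgeR adjusted p = 0.104), and Fech, which inserts iron into heme, had a fold change of 0.69 (SE 0.25, edgeR adjusted p = 0.0919). Ftl1 was at a mean of 1121 CPM in RW and 968 in aN1aN2, and Slc25a37, the mitochondrial iron importer, at 136.3 and 124.0. Slc25a39 was at 158.8 and 210.1 CPM. The 10 members below the filter had 66 UMIs (Urod) or fewer.

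Of the red cell enzymes and redox genes, 1 of 6 tested rose, where 3.94% of all tested genes did, again a single call. Adipor1, an adiponectin receptor, was at 68.3, 70.6 and 70.0 CPM in RW, 71.1, 70.1 and 60.6 in aJ1aJ2 and 109.1, 126.7 and 109.6 in aN1aN2. Its log2 fold change against RW was 0.72 (SE 0.20, edgeR adjusted p = 0.0381), and in cells of other labels it was at 116.7 CPM in RW and 200.9 in aN1aN2. Gpx1 was at 597, 429 and 686.5 CPM in RW and 719, 920 and 1001 in aN1aN2 (0.63, SE 0.21, edgeR adjusted p = 0.0867). Car2 had a fold change of -1.13 (SE 0.42, edgeR adjusted p = 0.0988), with overlapping samples. Prdx2 was at means of 174.4 and 134.3 CPM, Blvrb at 66.3 and 40.6 and Cat at 30.4 and 46.2. Of the membrane genes, 3 of 17 were tested and none was called, among them the skeletal protein gene Epb41 (152.9 and 164.6 CPM) and the anion exchanger gene Slc4a1 (14.5 and 17.4).

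Adult globins were not called in any contrast by the edgeR fit of all 9 samples and all Eryth2 cells with TMM scaling. Hbb-bt had a log2 fold change of -0.19 (SE 0.14, edgeR adjusted p = 0.409) and Hbb-bs one of 0.17 (SE 0.15, edgeR adjusted p = 0.553) in aN1aN2 against RW, and neither overlapped between the groups. Hba-a1 (0.08, SE 0.16) and Hba-a2 (-0.02, SE 0.16) overlapped. Against RW, total UMI scaling without TMM, added after the values were seen, called Hbb-bt lower (-0.28, edgeR adjusted p = 0.00329) and Hbb-bs higher (0.08, edgeR adjusted p = 0.0199), and a fit of only RW and aN1aN2 called Hbb-bt lower. Of 16 alternatives against RW, 2 called Hbb-bt, 1 Hbb-bs, 1 Hba-a2 and 0 Hba-a1. Against aJ1aJ2, 1 of 14 called Hbb-bt lower, and 2 called Hbb-bs higher, both without aJ1aJ2 1.

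Of the 13 falls against RW, 3 were transcripts of the mitochondrial genome. mt-Rnr2 and mt-Rnr1 are the mitochondrial ribosomal RNAs. mt-Rnr2 was at 2801, 2104 and 1943 CPM in RW, 2531, 2792 and 3146 in aJ1aJ2 and 630, 676 and 535 in aN1aN2 (log2 fold change -1.90, SE 0.19, edgeR adjusted p = 1.68e-05). mt-Rnr1 fell by 1.68 against RW (SE 0.24, edgeR adjusted p = 0.00053). Of the 12 tested protein genes of the mitochondrial genome, 1 fell against RW, mt-Atp8 (-1.22, SE 0.35, edgeR adjusted p = 0.0445), and 4 fell against aJ1aJ2, namely mt-Atp8, mt-Nd1, mt-Nd2 and mt-Nd5. Over all tested genes, 4.66% fell against RW and 5.38% against aJ1aJ2, so the count against RW is near the background. The medians over the 12 were 0.05 against RW and -0.47 against aJ1aJ2, where mt-Nd2 fell by 1.30 (SE 0.29, edgeR adjusted p = 0.0167). mt-Co3 was at 44.9 CPM in RW and 95.1 in aN1aN2 and mt-Cytb at 1217 and 1287. The mitochondrial ribosomal RNAs were also lower outside the label. mt-Rnr2 was at 21240 CPM in RW and 9219 in aN1aN2 over cells of other labels, and at 6219 and 1363 in Eryth1.

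A second set of falls were nuclear loci that carry or overlap sequence of ribosomal RNA. AY036118 was at 241.1, 242.7 and 43.3 CPM in RW, 142.2, 225.5 and 111.0 in aJ1aJ2 and 5.46, 8.97 and 10.1 in aN1aN2 (-4.44, SE 0.59, edgeR adjusted p = 0.000303), so that all aN1aN2 samples were lower and RW 3 was nearest to them. Lars2 fell by 2.13 (SE 0.37, edgeR adjusted p = 0.0028), Mir6236 by 2.09 (SE 0.48, edgeR adjusted p = 0.0164) and Gm42418 by 1.36 (SE 0.30, edgeR adjusted p = 0.0160). Reads at such loci may belong to ribosomal RNA, so their gene assignment is uncertain. AY036118 was at 499 CPM in RW and 42.4 in aN1aN2 over cells of other labels, and at 343 and 11 in Eryth1.

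Beyond these loci, Ube2d3, Psmd4, Pttg1, Isg15, Eif1 and Rpl17 were among the calls. Ube2d3, a ubiquitin-conjugating enzyme, rose by 1.28 (SE 0.35, edgeR adjusted p = 0.0381), with samples between 6.05 and 11.7 CPM in RW and between 15.3 and 25.7 in aN1aN2. Psmd4, a proteasome subunit that binds ubiquitin, fell by 1.51 (SE 0.39, edgeR adjusted p = 0.0303), with samples between 13.0 and 20.7 CPM in RW and between 5.59 and 6.55 in aN1aN2. Among the calls, Ube2d3 and Psmd4 of the ubiquitin and proteasome system thus went opposite ways.

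The smaller changes against RW were of similar size. Pttg1, the securin gene, fell by 1.18 (SE 0.24, edgeR adjusted p = 0.00944), Isg15, a ubiquitin-like interferon-induced gene, by 1.08 (SE 0.30, edgeR adjusted p = 0.0381), the translation initiation factor Eif1 by 1.04 (SE 0.24, edgeR adjusted p = 0.0163) and Rpl17 by 0.93 (SE 0.22, edgeR adjusted p = 0.0198). Of these, Isg15 was also lower in cells of other labels (67.8 CPM in RW, 19.2 in aN1aN2), whereas Pttg1 was at 129.5 and 122.3 there. Against aJ1aJ2, Pttg1 fell by 0.84 (edgeR adjusted p = 0.0499), but in the Eryth2 cells with no Tg UMI the value was 0.00748 (edgeR adjusted p = 1.00), so that call did not hold there. Further rises were Ppp1cb (0.96), Pabpc1 (0.96), Rpl21 (0.93), Eef1a1 (0.89) and Dcaf12 (0.78). Against aJ1aJ2 the calls added Gnas (0.90) and Rnf11 (0.93) among the rises and Gm26870 (-3.34), Tmsb4x (-1.29) and Pla2g16 (-0.97) among the falls, of which Tmsb4x overlapped between the groups.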

How the data were processed

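Per the labels' protocols, thyroids were digested, single-cell libraries came from the 3' v2 chemistry of 10x Genomics, and each was read on 1 HiSeq4000 lane. Per the submitters' processing notes, Cell Ranger and the build GRCm38 were used, and the version of Cell Ranger is not given in the sources used here. The authors deposited raw UMI counts per gene and cell for 10186 cells of at least 500 UMIs, and a label per cell. How the labels were made is not given in the sources used here. In 2619 annotation lines an unquoted comma was repaired, and 52403 of 52636 gene identifiers were matched to symbols (the 233 others held 0.0293% of UMIs).

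The Eryth2 counts of each sample were summed (619971 to 1384432 UMIs in RW, 479488 to 1105804 in aJ1aJ2, 911282 to 994554 in aN1aN2) and tested with edgeR 4.0.16 (R 4.3.3, filterByExpr, TMM, glmQLFTest, 1 fit of 3 groups), the method of every adjusted p given. Single values per sample had an exact two-sided permutation test, which cannot go below p = 0.1 with 3 against 3, and intervals cover counting error only. No doublet caller was run. In the comparison of labels a prior count of 1 UMI, scaled to each sum, was added before CPM were taken, and genes needed 20 UMIs in both labels together in 3 samples. The alternatives were DESeq2 1.42.0, other scalings and filters, and samples or cells left out.

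Named genes were all adult globin and late erythroid genes, the most abundant and all called members of other lists, the 5 largest rises and falls among called genes without overlap, and the 10 highest and lowest against Eryth1. Other called genes were named after their values were seen. A few genes that these rules name are not reported here. The members and lists were chosen with earlier results of these data known. The edgeR step was tested on simulated data. Titles give the numbers 1 and 2 to both RW and aN1aN2 samples. Deviations of these samples from their group means had correlations of -0.082 and -0.048, which cannot show that the samples were unpaired. The main test did not pair them.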

Additional observations from a re-analysis of the deposited data

How the results depend on the processing

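The median Eryth2 cell had 7944.5 UMIs and 90 genes, adult globins held 96.6% of the UMIs, and 279 genes passed the filter. Where a value changed below, the cause was not tested.

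Genes called in aJ1aJ2 against RW (1) came to 0 with DESeq2, only these 2 groups, the series block or Tg-free cells, and to 2 with no low-count filter. They also came to 0 in settings added after seeing the data: total UMI scaling, series B and C only, and cells at or above each sample's median UMIs. Genes called in aN1aN2 against RW (24) came to 14 with no filter and to 37 with series B and C only. The replicate block on 4 samples gave 0 calls and the same 4 samples without the block 13. Against aJ1aJ2 (26) there were 16 calls with no filter and 44 with series B and C only. Leaving out 1 sample gave 0 to 1, 7 to 25 and 9 to 36 calls.

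The Eryth2 share of aJ1aJ2 turned to 1.30 points above RW among erythroid cells. The Hbb-bt difference of aJ1aJ2 from RW was -0.549 to 0.409 points with 1 sample left out (positive without aJ1aJ2 1). Those of aN1aN2 turned to 0.861 (RW) and 1.70 (aJ1aJ2) in cells of 5000 to 8000 UMIs. The adult globin difference of aN1aN2 from RW (0.212) was -0.0405 without mitochondrial transcripts. In Tg-free cells that difference was 0.3985, where the groups did not overlap (exact permutation p = 0.1). With 1 sample left out, aJ1aJ2 minus RW ran from -592.8 to 787.2 median UMIs per Eryth2 cell, -564.3 to 97.7 in other labels and -0.0833 to 26.9 median genes, and the alpha share of aN1aN2 minus aJ1aJ2 from -0.441 to 0.428 points.

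Uncalled log2 values near 0 changed sign with 1 sample left out: Bpgm against RW (-0.206 to 0.0304) and aJ1aJ2 (-0.0316 to 0.0462) and Mkrn1 against aJ1aJ2 (-0.0107 to 0.121). Against aJ1aJ2, Bpgm was 0.0859 in Tg-free cells and Mkrn1 -0.0743 with total UMI scaling, and Pttg1 went from -0.84 to 0.00748 in Tg-free cells. Of 17 alternatives against RW, Ucp2, Fth1 and mt-Rnr2 were called in 16, Ncoa4 in 11, Isca1 in 10 and Adipor1 in 8.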
